A study of Mus musculus with 18 samples.

Results

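Lower glycolysis and the lactate step were followed through 8 genes chosen by name, *Gapdh*, *Pgk1*, *Pgam1*, *Eno1*, *Eno2*, *Pkm*, *Ldha* and *Ldhb*, out of 78239 gene identifiers in the count tables. All 8 passed the filter on low counts in the retina and 7 passed it in 661W cells, where *Ldhb* had too few counts to be tested. The study asked what chronic activity of the hypoxia-inducible transcription factor HIF1A does to rod photoreceptors, by delivering a mutant, normoxia-stable *Hif1a* (*nsHif1a*) that escapes oxygen-dependent inactivation. RNA sequencing was done on mouse retinas (5 AAV::eGFP and 5 AAV::*nsHif1a*) and on 661W cells (4 with eGFP and 4 with *nsHif1a*), 18 libraries in all.

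Retinal libraries came from mice injected under the retina between postnatal days 29 and 32 with an adeno-associated virus, and retinas were taken 3 weeks later. A mouse rhodopsin promoter drove Myc-tagged *nsHif1a* or, in the controls, enhanced GFP, so the transgene was aimed at rods while the RNA came from the whole retina, only part of which takes up a subretinal vector. The strain is C57BL/6J in the labels and wild-type 129S6 in the methods, and this was not resolved here. 661W is a photoreceptor-like mouse line derived from a retinoblastoma, and it was transfected with plasmids carrying *nsHif1a* or eGFP under a cytomegalovirus promoter and harvested after 20 h. Promoter, delivery and time all differ between retina and cells and cannot be told apart when both are compared. Nothing in the labels says which libraries came from separate animals or cultures, so *p*-values measure the spread between these libraries, which may in part be technical.

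The lower arm of glycolysis turns glyceraldehyde 3-phosphate into pyruvate. *Gapdh* makes NADH, *Pgk1* and *Pkm* make ATP, *Pgam1* shifts the phosphate, and the enolases *Eno1* (widely expressed) and *Eno2* (the neuronal form) remove water. Lactate dehydrogenase then reduces pyruvate to lactate and gives back the NAD+ that *Gapdh* needs. Its subunits are *Ldha*, usually linked to lactate production, and *Ldhb*, usually linked to lactate use, and they assemble into mixed tetramers. Photoreceptors are known for making lactate in the presence of oxygen, and many glycolytic genes are textbook targets of HIF1, which binds the core letters ACGTG or GCGTG of hypoxia response elements.

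Stretches upstream of the start of the canonical transcript are shown for *Ldha*, which had the most of these letters and the largest response in the retina, for *Pgk1*, for *Eno2*, the member that responded in cells, and for *Ldhb*. They were read from the GRCm39 reference genome, 5′ to 3′ on the strand of the gene, with ACGTG and GCGTG on either strand in capitals. The first *Ldha* stretch is chr7:46495063-46495123 (plus strand) and the second chr7:46495174-46495203, where an alternative *Ldha* transcript is also annotated. The others are chrX:105230546-105230695 (plus strand), chr6:124746647-124746796 (minus strand) and chr6:142453919-142454068 (minus strand).
Ldha, further upstream: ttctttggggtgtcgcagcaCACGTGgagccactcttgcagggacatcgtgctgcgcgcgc
Ldha, nearer the start: agcctaCACGTGggttcccgCACGTccgct
Pgk1: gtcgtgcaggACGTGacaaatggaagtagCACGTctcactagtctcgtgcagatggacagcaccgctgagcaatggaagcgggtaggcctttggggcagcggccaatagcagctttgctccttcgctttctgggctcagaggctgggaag
Eno2: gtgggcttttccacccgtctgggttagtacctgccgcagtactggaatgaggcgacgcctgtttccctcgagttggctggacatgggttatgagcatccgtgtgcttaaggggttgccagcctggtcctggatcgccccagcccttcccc
Ldhb: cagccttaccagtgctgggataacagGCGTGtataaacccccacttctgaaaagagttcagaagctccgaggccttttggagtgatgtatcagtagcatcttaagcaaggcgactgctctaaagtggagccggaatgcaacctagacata

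Within the window from 250 bases before to 50 bases after the start, *Ldha* held 5 matches to ACGTG and 3 to GCGTG. Of the ACGTG matches, 4 were the overlapping pairs within the palindrome CACGTG, which occurred 2 times. *Gapdh* and *Pgam1* each held 1 ACGTG and 2 GCGTG, *Pgk1* held 2 ACGTG, *Eno1* 2 GCGTG and *Ldhb* 1 GCGTG. Neither *Eno2* nor *Pkm* held a match in this window, which says nothing of letters elsewhere. Such matches are common: 20.7% of 21723 windows of protein-coding genes held ACGTG, 37.0% GCGTG, 48.0% either and 7.83% CACGTG. These are matches of letters and not measured binding.

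Deposited counts per library summed to between 12898220 and 16167522 in the retina and between 13424326 and 17809585 in cells, and the 8 members together took 0.482% ± 0.014 of them in AAV::eGFP retinas and 0.564% ± 0.025 in AAV::*nsHif1a* retinas (SD, n = 5). *Hif1a* itself, the delivered gene, had 1561 ± 384 CPM (counts scaled to the library total and by the trimmed mean of M values, TMM) in *nsHif1a* cells against 157 ± 6.79 in controls (SD, n = 4). In the retina it had 687 ± 31.6 CPM against 668 ± 26.1 (SD, n = 5, log2FC 0.05, adjusted *p* = 0.50 from limma), so *Hif1a* counts do not check the labels of the retinal libraries. The paper reports a marked increase of HIF1A protein after AAV::*nsHif1a*, by Western blot of whole retinas taken at the same time. That is a measure of protein and not of RNA. The labelled tissue held, with summed rod markers at 46417 to 51410 CPM in AAV::eGFP and 36408 to 48515 CPM in AAV::*nsHif1a* retinas. With limma 4 of 10 rod markers fell (0 with edgeR, 6 with DESeq2), where 2.47% of all genes fell with limma. By sign alone, 0 of 10 were higher, with a median log2FC of -0.21. In 661W cells the 10 rod markers summed to only 9.23 to 13.4 CPM and the 9 cone markers to 2.10 to 5.27 CPM. In bulk RNA, fewer cells of a type and less RNA per cell cannot be told apart. *Xist*, transcribed from the inactive X chromosome of females, was at 1 to 3 counts in controls 3 to 5 and abundant in the remaining 7 retinal libraries. The 6 lens γ-crystallins held 0.0634% to 0.280% of counts in AAV::eGFP and 0.0956% to 1.82% in AAV::*nsHif1a* retinas, over 1% in libraries 1, 3 and 4 of the latter.

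In control retinas, levels per kilobase of transcript ran from *Pkm* (733 ± 21.1 CPM per kb, SD, n = 5) and *Ldha* (446 ± 16.8) through *Pgam1* (359 ± 8.82), *Eno2* (221 ± 11.8), *Eno1* (197 ± 18.8), *Gapdh* (163 ± 12.9) and *Pgk1* (114 ± 6.49) to *Ldhb* (87.5 ± 4.85). *Eno2* and *Eno1* overlapped between libraries and the other neighbours in this order did not. Control 661W cells kept *Pkm* (877 ± 19.1 CPM per kb, SD, n = 4) and *Ldha* (396 ± 25.3) at the top. There *Pgam1* (206 ± 6.54) and *Eno1* (202 ± 7.10) overlapped, followed by *Pgk1* (140 ± 4.13) and *Gapdh* (126 ± 3.08). The neuronal enolase and the *Ldhb* subunit set the line apart from the tissue, with *Eno2* at 6.16 ± 0.242 and *Ldhb* at 0.224 ± 0.048 CPM per kb. These levels are of the counts assigned to each gene itself, and for *Gapdh*, *Pgk1* and *Eno1* most counts of the same sequence lay on near-identical genes, as given further on.

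In the retina, nearly the whole lower arm was higher under AAV::*nsHif1a*. *Gapdh*, *Pgk1*, *Pgam1*, *Eno1*, *Pkm* and *Ldha*, 6 of 8, rose (adjusted *p* under 0.05 from limma with Benjamini-Hochberg (BH) adjustment over 18859 genes), where 3.31% of all genes tested were called higher in this way. The 5 AAV::*nsHif1a* libraries lay above all 5 AAV::eGFP libraries for each of these 6, and 3.25% of all genes had such groups without overlap. The median log2FC of the 8 was 0.27, against -0.0021 over all genes tested. Only *Ldha* also passed the fold threshold of 0.5 on the log2 scale (1.08% of genes did), and no member fell (2.47% of genes did), since all 8 had a positive log2FC. By edgeR 5 and by DESeq2 6 members rose. *Eno2* and *Ldhb*, the neuronal enolase and the lactate-use subunit, did not pass the test.

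*Ldha* (ENSMUSG00000063229.16, chr7:46490899-46505061 in GRCm39) had the largest response of the 8. Its AAV::eGFP libraries were at 684, 719, 737, 677 and 727 CPM, and its AAV::*nsHif1a* libraries at 939, 1060, 1000.2, 989 and 979 CPM. The groups lay far apart compared with their spread, 709 ± 26.7 against 993 ± 43.8 CPM (SD, n = 5), a 1.42-fold level (95% limits 1.33 to 1.5). Its log2FC was 0.501 (SE 0.041, adjusted *p* = 1.5e-04 from limma with BH). It was thus at the fold threshold itself, and values between 0.47 and 0.49 put it below with edgeR, DESeq2, voom without sample weights or library totals, or without AAV::eGFP library 1 or 4 or AAV::*nsHif1a* library 2, while its adjusted *p* was at most 0.011 under every alternative. *Ldhb* (chr6:142435672-142454586), the other subunit, had 142, 134, 140, 124 and 129 CPM in AAV::eGFP and 141, 144, 151, 142 and 134 CPM in AAV::*nsHif1a* retinas. These groups overlapped (log2FC 0.11, 95% limits 0.01 to 0.21, adjusted *p* = 0.18 from limma with BH).

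The enolases also separated. *Eno1* (ENSMUSG00000063524.14, chr4:150321073-150337027) had 502, 497, 413, 423 and 428 CPM in AAV::eGFP libraries 1 to 5 and 579, 615, 570, 579 and 623 CPM in AAV::*nsHif1a* libraries. The groups did not overlap (453 ± 43.1 against 593 ± 24 CPM, SD, n = 5, log2FC 0.40, SE 0.058, adjusted *p* = 0.0022 from limma with BH). Within the controls, both libraries with *Xist* were the high ones, and with the *Xist* class as a covariate the log2FC of *Eno1* was 0.25 (adjusted *p* = 0.014, limma with BH). *Eno2* (ENSMUSG00000004267.17, chr6:124736247-124746636) had 628, 570, 652, 601 and 640 CPM in AAV::eGFP and 697, 641, 685, 604 and 581 CPM in AAV::*nsHif1a* retinas. Its groups overlapped almost fully (log2FC 0.06, 95% limits -0.05 to 0.17, adjusted *p* = 0.54 from limma with BH).

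The earlier steps rose by less than *Ldha*. *Gapdh* (ENSMUSG00000057666.19, chr6:125135289-125143518), which makes NADH, had 249, 244, 228, 203 and 234 CPM in AAV::eGFP and 273, 297, 297, 285 and 278 CPM in AAV::*nsHif1a* retinas. These groups did not overlap (log2FC 0.32, SE 0.054, adjusted *p* = 0.0047 from limma with BH). The first ATP-making step, *Pgk1* (ENSMUSG00000062070.13, chrX:105230706-105247305), had 199, 205, 223, 196 and 218 CPM against 238, 270, 255, 256 and 278 CPM, again with every AAV::*nsHif1a* library above every control (log2FC 0.32, SE 0.049, adjusted *p* = 0.0030, limma with BH). The mutase *Pgam1* (chr19:41900341-41907104) ran from 618 to 656 CPM in controls and from 722 to 784 CPM with AAV::*nsHif1a* (log2FC 0.23, SE 0.036, adjusted *p* = 0.0032, limma with BH). Pyruvate kinase *Pkm* (chr9:59563364-59586663), the most abundant member, ran from 1713 to 1848 CPM and from 1963 to 2099 CPM (log2FC 0.19, SE 0.033, adjusted *p* = 0.0073, limma with BH).

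**Figure D1:**
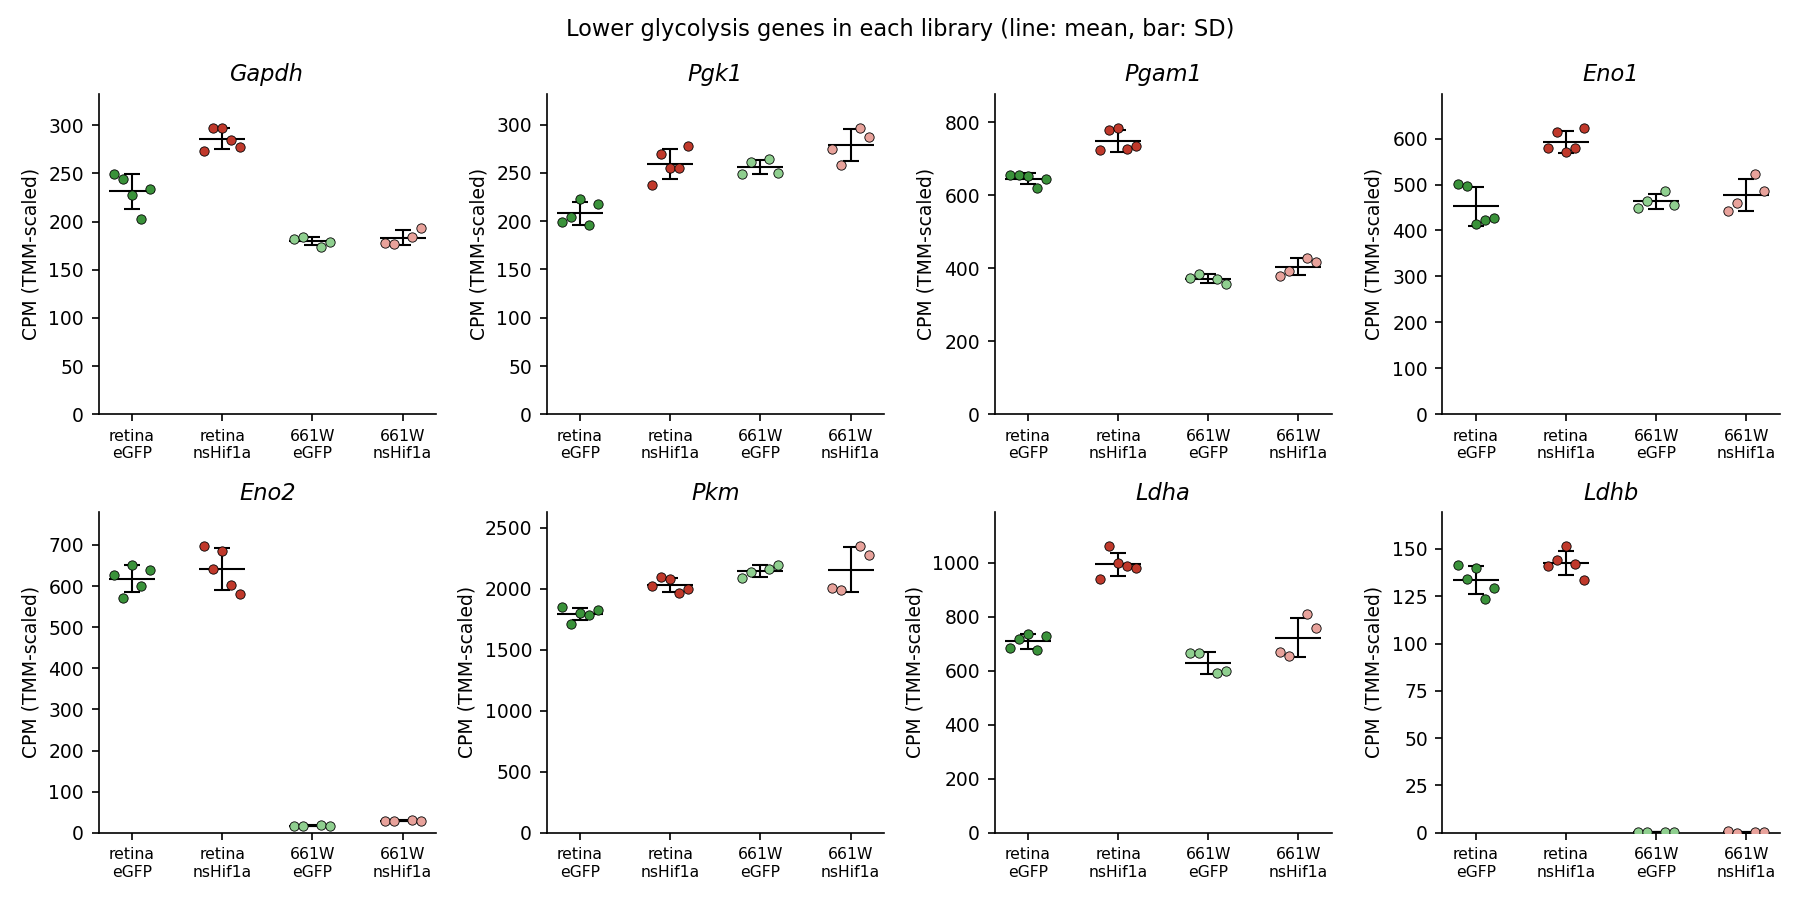
TMM-scaled CPM (vertical axes, from 0) of the 8 genes in each library of the 4 groups, with the mean as a horizontal line and the SD as bars (n = 5 in the retina, n = 4 in 661W cells). The retinal groups are apart for all genes except *Eno2* and *Ldhb*, and both of those are near 0 in 661W cells.

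Some of these retinal calls did not hold in every fit, though 6 of 8 members rose with any 1 library left out. Without the 3 AAV::*nsHif1a* libraries with over 1% lens counts, 4 of 8 members still rose. There *Gapdh* (log2FC 0.32, adjusted *p* = 0.080) and *Pkm* (0.19, adjusted *p* = 0.092, both limma with BH) did not pass. With all libraries their log2FC rounded to the same values. With only the libraries that held *Xist* counts, which leaves AAV::eGFP libraries 1 and 2 as controls, 3 of 8 rose, namely *Pgk1*, *Eno1* and *Ldha*. Over all genes, 220 were upregulated (log2FC above 0.5) without the lens-rich libraries and 64 with *Xist* libraries only, against 203 with all. The share of all genes that rose at an adjusted *p* alone in these fits is not given here. *Pkm* also did not pass with edgeR's quasi-likelihood test (adjusted *p* = 0.064) and *Gapdh* not with the *Xist* class as a covariate (log2FC 0.23, adjusted *p* = 0.070, limma with BH). The part of lens RNA and of sex in these values was not tested beyond this.

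In 661W cells over all 4 replicates, *Eno2*, 1 of 7 members tested, rose (2.06% of 15962 genes were called higher, and 1.21% also passed the fold threshold, as *Eno2* did). Its control libraries had 16.3, 17.3, 17.9 and 17.4 CPM and its *nsHif1a* libraries 29.4, 29.2, 30.6 and 28.1 CPM. The groups were well apart and each was tight (7.51% of all genes had a higher group without overlap), with 1.70-fold the control level (95% limits 1.55 to 1.86, log2FC 0.76, SE 0.059, adjusted *p* = 3.4e-04 from limma with BH). Even so, *Eno2* stayed a minor enolase in these cells, resting on 232 to 304 counts in controls and 415 to 524 with *nsHif1a*. The call held under each of the alternatives tried at unchanged thresholds, with a log2FC between 0.73 and 0.80. No member fell with limma, edgeR or DESeq2 (0.426% of all genes were called lower with limma), and the median log2FC of the 7 was 0.12 against -0.0013 over all genes.

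The other 6 tested members did not pass in cells over all 4 replicates per group, with limma, edgeR or DESeq2, and 3 of them had an unadjusted *p* under 0.05 with limma. *Ldha* had 664, 664, 592 and 597 CPM in controls 1 to 4 and 668, 655, 808 and 760 CPM in *nsHif1a* libraries 1 to 4. The groups overlapped (log2FC 0.19, 95% limits 0.02 to 0.35, adjusted *p* = 0.19 from limma with BH). In replicates 1 and 2 the pairs are level, and in replicates 3 and 4 the *nsHif1a* libraries are well above. *Pgk1* (log2FC 0.12, adjusted *p* = 0.22) and *Pgam1* (0.12, adjusted *p* = 0.21, both limma with BH) leaned the same way without passing. *Gapdh* (0.03), *Eno1* (0.03) and *Pkm* (-0.01) were close to level, with 95% limits of -0.07 to 0.12, -0.09 to 0.15 and -0.13 to 0.12. *Ldhb* had 5, 5, 5 and 6 counts in controls and 12, 1, 4 and 4 counts with *nsHif1a*, close to the floor of 3 counts, which was 0.168 to 0.233 CPM over all libraries.

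The 661W libraries fell into 2 sets by replicate number. Over genes with enough counts, the squared difference between libraries of a group was 1.48 to 1.62 times the sampling noise within replicates 1 and 2 or within 3 and 4, and 3.83 to 9.12 times across them. *Hif1a* itself was at 1222 and 1241 CPM in *nsHif1a* replicates 1 and 2 and at 1954 and 1825 CPM in 3 and 4, and the part of this in what follows was not tested. The response of *Ldha* was -0.01 (log2FC, adjusted *p* = 0.82) in replicates 1 and 2 and 0.40 (adjusted *p* = 9.7e-08, both limma with BH) in 3 and 4. The difference of 0.40 (SE 0.039) passed the test itself (adjusted *p* = 2.1e-07 from limma's interaction with BH), as it did for 19.6% of all genes.

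Other members followed the same split, by less. The effect of *nsHif1a* was larger in replicates 3 and 4 by 0.20 for *Pgam1* (adjusted *p* = 0.0023), by 0.16 for *Pkm* (adjusted *p* = 1.1e-04) and by 0.15 for *Gapdh* (adjusted *p* = 0.048, all limma's interaction with BH). Without *nsHif1a* replicate 1 or without replicate 2, 4 of 7 members rose in cells. These were *Ldha*, *Pgk1* and *Pgam1* (adjusted *p* 0.020 to 0.048 for these 3, limma with BH) beside *Eno2*. In replicates 3 and 4 alone 5 of 7 rose, with *Pkm* added. Over all genes, 195, 194 and 186 were upregulated in these fits, in the same order, against 193 with all libraries. Being upregulated also takes the fold threshold, which the members counted here as risen did not have to pass. These gene counts are thus no background for the members, and the share of all genes that rose at an adjusted *p* alone in these fits is not given here. *Pkm* changed direction, from -0.08 in replicates 1 and 2 to 0.09 in 3 and 4, and passed the test in both. For *Pgk1* and *Eno1* the difference was 0.12 each and did not pass (adjusted *p* = 0.14 and 0.13, limma with BH). For *Eno2* it was -0.07 (adjusted *p* = 0.75), with a log2FC of 0.80 in the first set and 0.73 in the second.

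**Figure D2:**
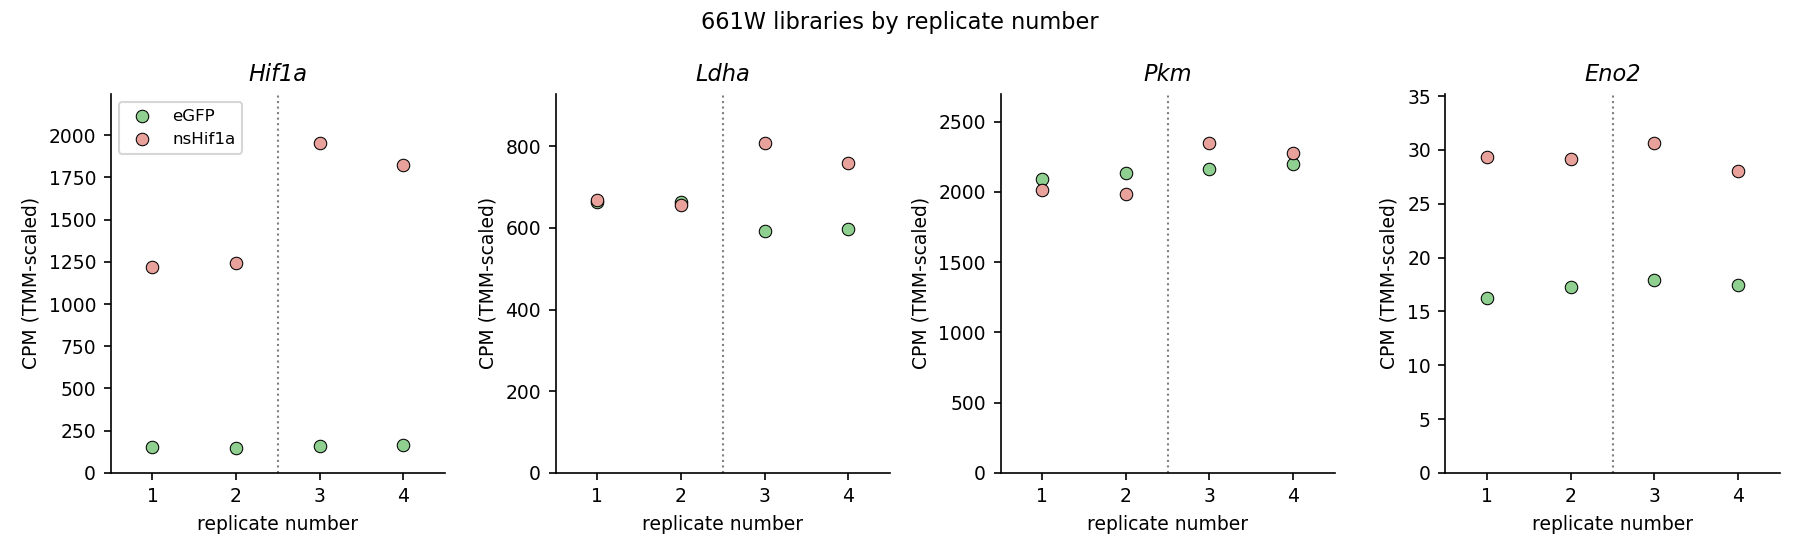
TMM-scaled CPM (vertical axes, from 0) of *Hif1a*, *Ldha*, *Pkm* and *Eno2* in the 661W libraries by replicate number (horizontal axes), 1 point per library, with a dotted line between the 2 sets. *nsHif1a* libraries 3 and 4 stand above 1 and 2 for *Hif1a*, *Ldha* and *Pkm*, while the *Eno2* points of each group stay level.

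Whether the response differed between retina and cells was tested as the difference of the log2FC values over all 18 libraries. It passed for 3 of the 7 members tested in both systems, *Ldhb* being left aside for its few counts in cells, and 2.33% of 20999 genes did, 1.08% with the larger and 1.25% with the smaller effect in the retina. *Eno2* had the smaller effect in the retina (retina minus cells -0.70, SE 0.11, adjusted *p* = 0.0041). *Eno1* and *Gapdh* had the larger effect in the retina, by 0.35 (SE 0.083, adjusted *p* = 0.033) and 0.29 (SE 0.075, adjusted *p* = 0.048, all limma's interaction with BH). The last was at the threshold, and it was lost when the 661W replicate numbers entered the fit as a block (adjusted *p* = 0.056, limma with BH). *Ldha* had a difference of 0.29 (95% limits 0.12 to 0.46, adjusted *p* = 0.071, limma with BH) and *Pgk1*, *Pkm* and *Pgam1* of 0.19, 0.16 and 0.10, all with the larger effect in the retina and not past the test.

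The 661W sets bore on this comparison too. Without *nsHif1a* replicate 3 or without replicate 4 of the cells, all 7 differed. With the same library left out of the cells fit, 1201 and 1194 genes were upregulated, against 193 with all libraries. The share of all genes that differed between retina and cells in these settings is not given here. Leaving out AAV::eGFP library 3, 4 or 5, or AAV::*nsHif1a* library 2, left *Eno2* alone, with adjusted *p* between 0.058 and 0.080 for *Eno1* and *Gapdh* (limma with BH). *Gapdh* was also lost without AAV::*nsHif1a* library 3, 4 or 5 or without replicate 1 or 2 of either 661W group (adjusted *p* 0.052 to 0.096, limma with BH). With no filter on low counts *Eno2*, *Eno1* and *Gapdh* all missed the threshold, *Eno2* with an adjusted *p* of 0.43 (limma with BH) at a difference of -0.74.

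Isozyme shares were computed within each library, as the CPM per kb of 1 isozyme over the sum of the pair, so that no scaling between tissue and line enters. *Ldhb* made up 17.7%, 16.2%, 16.5%, 15.97% and 15.6% of *Ldha* plus *Ldhb* in AAV::eGFP retinas 1 to 5. With AAV::*nsHif1a* it was 13.5%, 12.4%, 13.6%, 13.0% and 12.4%. The share of the lactate-use subunit was thus lower in every AAV::*nsHif1a* library, with a mean difference of -3.42 percentage points (exact permutation test, 2-sided, *p* = 0.0079, the smallest that 5 against 5 allows, and 0.032 adjusted by BH over 6 share tests). In 661W cells *Ldhb* was 0.0469% to 0.0783% of the pair in controls and 0.0111% to 0.105% with *nsHif1a*, on 1 to 12 *Ldhb* counts per library (*p* = 0.60, exact permutation test).

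*Eno2* made up 50.6%, 48.5%, 56.4%, 53.8% and 55.1% of *Eno1* plus *Eno2* in AAV::eGFP retinas. The counts assigned to the 2 genes themselves were thus about level. With near-identical genes added to each isozyme, the mean share of *Eno2* in these controls was 26.8%, so it was then the smaller part. From own counts again, the *Eno2* share with AAV::*nsHif1a* was 49.7%, 46.1%, 49.7%, 46.1% and 43.3%. The groups overlapped and the means differed by -5.93 percentage points (52.9% ± 3.26 against 47.0% ± 2.70, SD, n = 5, exact permutation test *p* = 0.032, adjusted 0.038). In 661W cells the share went the other way, from 2.96% ± 0.065 to 4.81% ± 0.307 (SD, n = 4) with no overlap (exact permutation test *p* = 0.029, the smallest that 4 against 4 allows, adjusted 0.038). Between control retina and control cells the share of *Eno2* differed by 49.9 percentage points and that of *Ldhb* by 16.3 (exact permutation test *p* = 0.016 each, the smallest possible, adjusted 0.032). With near-identical genes added to each isozyme the difference of the *Eno2* share was 25.5 percentage points.

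The retinal *Eno2* share was the weakest of these. With near-identical genes added to each isozyme it was 26.8% in AAV::eGFP and 23.6% in AAV::*nsHif1a* retinas (difference -3.23 percentage points, exact permutation test, adjusted *p* = 0.057), and adjusted *p* was between 0.057 and 0.076 when any of 7 retinal libraries was left out (AAV::eGFP 1, 3, 4 or 5, AAV::*nsHif1a* 2, 4 or 5).

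**Figure D3:**
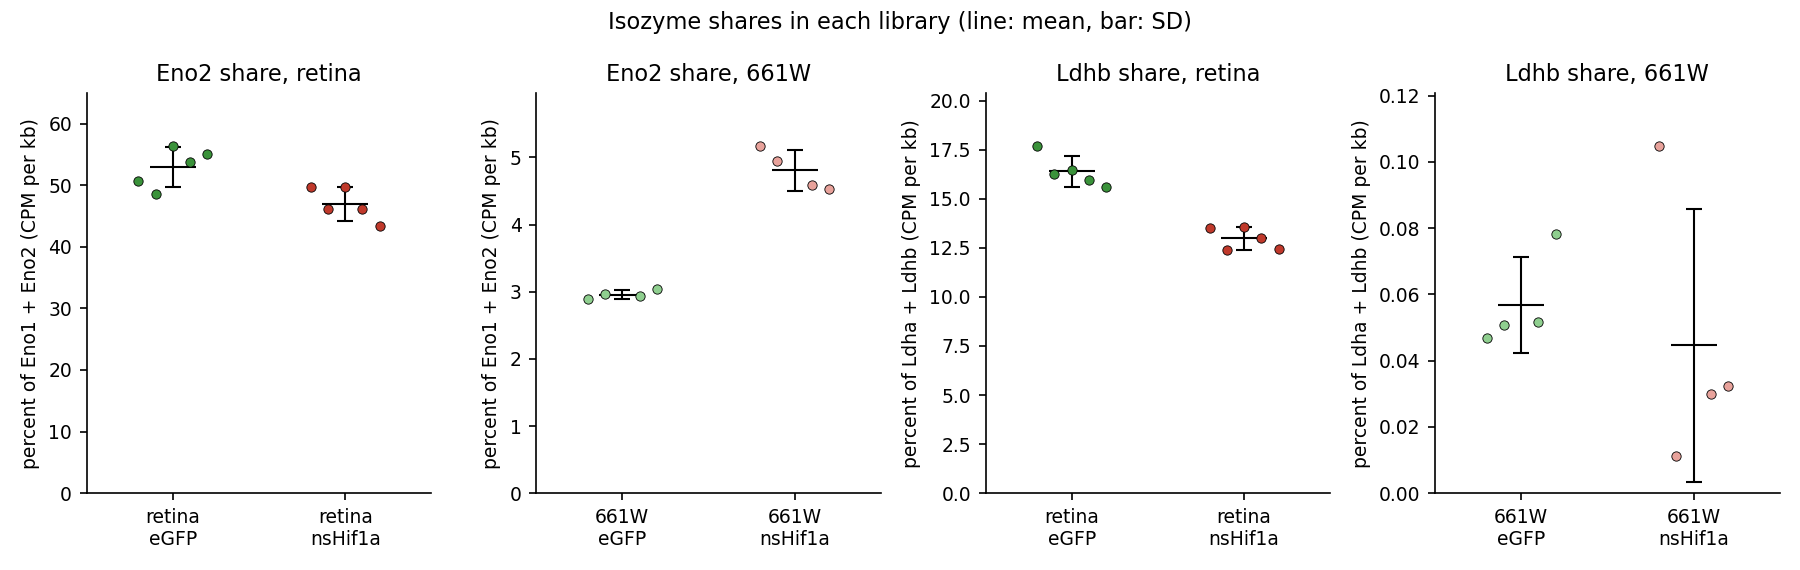
Share of *Eno2* in *Eno1* plus *Eno2* and of *Ldhb* in *Ldha* plus *Ldhb* (vertical axes, percent of CPM per kb, each axis from 0 with its own range) for each library, with mean and SD. The means of both shares are lower with AAV::*nsHif1a* in the retina, where the *Eno2* groups overlap, and the *Eno2* share is higher with *nsHif1a* in 661W cells.

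Of the remaining isozymes, *Eno3*, *Pgam2* and the retrocopy *Eno1b* were present at sizeable levels. *Eno1b*, which shares most of its sequence with *Eno1*, rose in the retina with limma, edgeR and DESeq2 (log2FC 0.26, adjusted *p* = 0.0091, limma with BH). The muscle-type enolase *Eno3* held 3.50% ± 0.470 of the 4 enolases *Eno1* to *Eno4* in AAV::eGFP retinas (SD, n = 5) and 13.99% ± 1.45 in control cells (SD, n = 4), well above the 2.54% ± 0.043 of *Eno2* there. *Pgam2*, the muscle-type mutase, held 4.12% ± 1.86 of *Pgam1* plus *Pgam2* in AAV::eGFP and 10.96% ± 8.22 in AAV::*nsHif1a* retinas (SD, n = 5). It was uneven between libraries, with 114 to 335 counts in AAV::eGFP and 117 to 1444 in AAV::*nsHif1a* libraries (log2FC 1.28, SE 0.67, adjusted *p* = 0.30, limma with BH). *Pgk2* was at 0 counts in all libraries. *Pklr*, *Ldhc* and *Gapdhs* had at most 1, 1 and 4 counts in any library.

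Several members share most of their transcript with pseudogenes, and the counts on those were large. Of the 50-base words of the *Gapdh* transcript, 82.5% occur in other genes, and 32 genes that share at least 50% of their own words with *Gapdh* held 1239% of its counts in the retina and 1402% in cells. The largest were the processed pseudogenes *Gm12070* (236% and 266%), *Gm7336* (235% and 231%) and *Gm5559* (182% and 195%). *Pgk1-rs7* and *Gm5537*, each with all of its words in *Pgk1*, held 120% and 108% of the *Pgk1* counts in the retina, and *Pgam1-ps2* held 44.7% of those of *Pgam1*. The retrocopy *Eno1b* held 196% of the *Eno1* counts in the retina and 126% in cells. *Eno2*, *Ldha* and *Ldhb* had no such gene, and the single one for *Pkm* (*Gm49759*) held 4.74% and 3.86%. Reads of these sequences cannot be placed with certainty, so the levels of *Gapdh*, *Pgk1* and *Eno1* alone are uncertain.

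Adding those counts to their member moved levels far more than responses. *Gapdh* went from 231 to 3035 CPM in AAV::eGFP retinas, the highest sum of the 8, and its log2FC from 0.32 to 0.38 (adjusted *p* = 6.9e-04, limma with BH). *Eno1* went from 453 to 1387 CPM with a log2FC of 0.31 (adjusted *p* = 0.0045), and *Pgk1* from 208 to 688 CPM with 0.32 (adjusted *p* = 0.0023, both limma with BH). The same 6 members rose in the retina and *Eno2* alone rose in cells. For the difference between retina and cells, *Eno1* then missed the threshold (adjusted *p* = 0.056, limma's interaction with BH).

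**Figure D4:**
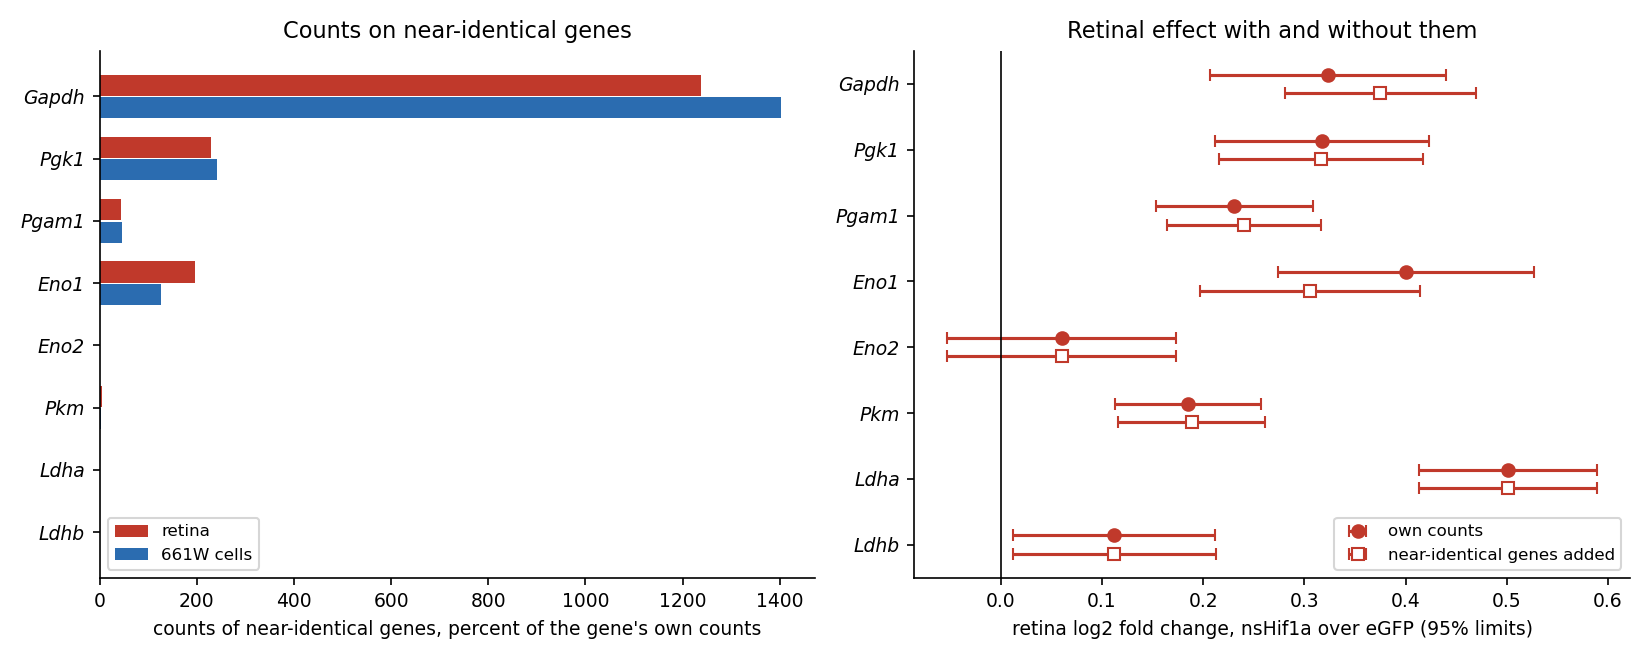
Left, counts on genes that share at least 50% of their 50-base words with a member, as percent of that member's own counts, in the retina (red) and in 661W cells (blue). Right, retinal log2 fold change with 95% limits from own counts (filled circles) and with those genes added (open squares), where all values stay on the same side of 0.

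Most of the steps before *Gapdh* also rose in the retina. Of 13 upper glycolysis genes, 12 were tested in the retina and 8 rose (median log2FC 0.33, 3.31% of all genes higher). The glucose 6-phosphate isomerase *Gpi1* went from 533 ± 14.9 to 705 ± 25.99 CPM (SD, n = 5, log2FC 0.41, adjusted *p* = 1.5e-04, limma with BH), and phosphofructokinase *Pfkl* and triose phosphate isomerase *Tpi1* rose by 0.46 and 0.38. In 661W cells 3 of 9 tested rose (2.06% of all genes), *Pfkl* by 0.88, *Pfkp* by 0.48 and *Tpi1* by 0.39. *Tpi1*, which lies just above *Gapdh*, thus rose in both systems, with a difference that did not pass (adjusted *p* = 0.99, limma's interaction with BH).

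Pyruvate and lactate leave glycolysis through transport and mitochondria, and there the changes sat in few genes. Of 22 listed genes, 5 of 20 tested rose in the retina (3.31% of all genes) and 3 of 18 in cells (2.06%), with limma. By edgeR 5 and 2 rose and by DESeq2 5 and 3, and *Pdha1*, a subunit of pyruvate dehydrogenase, was called lower in cells by DESeq2 but not by limma (-0.12, adjusted *p* = 0.10). The lactate exporter *Slc16a3* (MCT4) was at 68.9 ± 2.52 CPM in AAV::eGFP and 168 ± 33.3 CPM in AAV::*nsHif1a* retinas (SD, n = 5, log2FC 1.29), and it went from 24.5 ± 3.14 to 108 ± 19.6 CPM in cells (SD, n = 4, log2FC 2.12), more in cells (adjusted *p* = 0.031, limma's interaction with BH). *Pdk1*, the kinase that switches off pyruvate dehydrogenase, rose by 0.57 and by 1.53 (difference adjusted *p* = 0.0075, limma with BH). *Bsg*, the chaperone of lactate transporters, rose in the retina alone by the test (0.34, adjusted *p* = 0.0010, limma with BH), with 0.10 in cells and a difference that did not pass (adjusted *p* = 0.26). Of 10 genes of the NADH shuttles, *Got1* rose in cells (0.24, adjusted *p* = 0.037, limma with BH). DESeq2 also called 3 lower there, which limma and edgeR did not, and 4 were lower at an unadjusted *p* under 0.05 with limma. In the retina 0 passed with limma, edgeR or DESeq2, and 2 had an unadjusted *p* under 0.05 with limma, 1 in each direction.

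Markers of other cell types that moved with AAV::*nsHif1a* in the retina are given here for comparison. The 9 microglial markers had a median log2FC of 1.10 and did not pass with limma, edgeR or DESeq2 (6 had an unadjusted *p* under 0.05 with limma), and summed to 38.5 to 271 CPM in AAV::eGFP and 86.2 to 261 CPM in AAV::*nsHif1a* libraries, so the groups overlapped. Endothelial markers summed to 214 to 271 and 254 to 324 CPM with 1 of 6 higher (*Kdr*) with limma and DESeq2, and Müller glia markers to 5288 to 5624 and 4892 to 5456 CPM with 1 of 8 higher (*Slc1a3*) with the same tools, where edgeR called neither. Of the neurons, 1 of 9 cone markers (*Opn1mw*) fell with all 3 tools, and 2 of 8 bipolar cell markers fell with limma and DESeq2 and 1 with edgeR. By sign alone, 5 of 9 cone and 6 of 8 bipolar cell markers were higher, with a median log2FC of 0.06 and 0.08. With limma, 3.31% of all genes rose and 2.47% fell. The part of these cells in the response of the members was not tested.

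By root mean squared difference of log2 CPM over the 18 libraries, each gene centred within its experiment, the genes nearest to *Ldha* among 14122 tested in both were *Bnip3l* (0.058), *Eid1* (0.058) and *Gm5452* (0.071), where the median over genes was 0.26. *Gm5452* is a processed pseudogene with 11.6% of its words in *Ldha*, and it held 3.78% of the *Ldha* counts in the retina and 3.90% in cells. The genes nearest to *Pgk1* were *Zfp292* (0.050), the *Gapdh* pseudogene *Gm12070* (0.053) and its own pseudogene *Pgk1-rs7* (0.054), with a median of 0.21. *Ldhb* was not tested in both systems. Libraries share depth and batch across all genes, so these are descriptions of likeness.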

How the data were processed

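RNA sequencing of whole mouse retinas and of 661W cells gave raw gene counts, deposited as 1 table for each experiment with a column per library. Per the study's methods and the labels, the authors made these counts from stranded, paired-end mRNA libraries with Rsubread 2.18.0, aligned to GRCm39 and assigned to GENCODE M36 basic genes in the antisense strand mode of featureCounts. Reads of near-identical genes could thus be split or lost. Gene positions and transcript words came from GENCODE M39, which matched 78168 of 78239 identifiers. The members and lists were chosen with earlier results of these data known.

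Each experiment was filtered with edgeR 4.0.16 (filterByExpr, minimum count 10), scaled by TMM and fitted with voom sample weights in limma 3.58.1 (R 4.3.3), with BH adjustment over all genes. Genes rose or fell at an adjusted *p* under 0.05, and were upregulated or downregulated if the log2FC was also beyond 0.5. Differences between experiments were the interaction over 18 libraries. Shares were compared by 2-sided exact permutation tests (SciPy 1.17.1). Alternatives were edgeR, DESeq2 1.42.0, other scalings and filters, covariates, a replicate block and leaving out each library. Leaving out the lens-rich libraries, adding all genes that share words with a member and the interaction between the sets of 661W replicates were chosen after seeing the data. Scripts were tested on simulated counts.

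The genes named are the 8 members and at most 6 genes per list with the smallest adjusted *p* under 0.05. Also named are, for most members, up to 3 of the sharing genes with most counts. The 3 nearest genes of *Pgk1*, *Ldha* and *Ldhb*, and any gene on which a result turns, complete the choice. *Bsg* (in cells), *Pgam2* and *Pdha1* also appear with values that did not pass limma's test, and *Eno3* with shares that were not tested. Intervals and floors from counts cover counting error only. Same-numbered 661W libraries deviated together from their group means (correlations 0.227 to 0.269 over genes), and retinal libraries did not (-0.148 to 0.138). Replicates 3 and 4 of the cells matched their own number best, but replicates 1 and 2 matched each other's. Pairing by number thus rests neither on a stated design nor fully on the data.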

Additional observations from a re-analysis of the deposited data

Results flagged for a closer look

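The response of 3 members differed between retina and 661W cells by limma's interaction with BH adjustment, with a retinal minus cell log2FC of 0.29 for *Gapdh*, 0.35 for *Eno1* and -0.70 for *Eno2*. The *Ldhb* share of control 661W replicate 4 (0.0783%) stood apart from the other 3 controls (0.0469% to 0.0515%), on 6 *Ldhb* counts against 5 in each of the others. It was 1 of 40 groups of values looked at in this way, and chance alone sets apart about 1 in 20.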

How the results depend on the processing

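*Ldha*, *Pgk1* and *Eno1* rose in the retina and *Eno2* in cells under every alternative fit tried. In the retina, the number of upregulated members (1) was 6 with no fold threshold and 0 at a log2FC above 1, with edgeR, DESeq2, no sample weights, library totals or the replicate block, and 0 to 1 without any 1 library. Over all genes, 203 were upregulated and 172 downregulated there. With no fold threshold these were 625 and 466, and above 1 they were 86 and 37. Upregulated genes numbered 104 with the *Xist* class as covariate, 64 with *Xist* libraries only and 137 to 313 without 1 library. Downregulated genes numbered 111 with no weights, 113 with no filter, 39 without the lens-rich libraries, 59 with the block, 76 with *Xist* libraries only, 84 with a lens covariate and 82 to 215 without 1 library. Without the lens-rich libraries *Eno2* was at -0.016. As retinal numbers do not pair the libraries, the block, which left 5 of 8 members higher (*Pkm* adjusted *p* = 0.058, limma with BH), is given for its own sake. Here and below, the cause of such changes was not tested.

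In cells, 1 member was upregulated, and 0 above a log2FC of 1. Over all genes, 193 were upregulated and 10 downregulated. These were 329 and 68 with no fold threshold, 72 and 3 above 1, and 328 and 32 with DESeq2. With the replicate block they were 105 and 2, and with the replicate set as covariate 519 and 73. In replicates 1 and 2 they were 1336 and 648. Downregulated genes numbered 3 with edgeR, 6 with no weights, 16 with no filter and 43 in replicates 3 and 4. Without 1 library there were 82 to 1201 upregulated (1201 and 1194 without *nsHif1a* replicate 3 and 4) and 2 to 682 downregulated genes (677 and 682). Signs near 0 turned: in replicates 1 and 2, *Gapdh* was -0.048, *Eno1* -0.023 and *Ldha* -0.0084. Without *nsHif1a* replicate 3 or 4, *Gapdh* was -0.012 or -0.017 (up to 0.076 without others) and *Eno1* -0.034 or -0.027 (up to 0.11). *Pkm* was 0.0060 with edgeR, 0.0037 with DESeq2, 0.0020 with no weights, 0.0019 with no filter, 0.0097 with the replicate block, 0.0032 with the set covariate, 0.088 in replicates 3 and 4, and 0.0081, 0.015, 0.092 and 0.095 without control replicate 3 or 4 or *nsHif1a* replicate 1 or 2 (range -0.093 to 0.095).

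Members differing between retina and cells (3 of 7) were 1 with an added threshold of 0.5, edgeR, library totals, no lens-rich libraries or the *Xist* covariate, 0 with no filter, 6 with at least 1 CPM in every library, and 1 to 7 without 1 library. The difference of *Gapdh* missed the threshold in 18 of 30 alternatives, that of *Eno1* in 11 and that of *Eno2* in 1. The retinal *Eno2* share differed by -3.23 and -3.27 percentage points with near-identical or all sharing genes added, and by -7.03 to -5.02 without 1 library (-6.49 among those that missed the threshold). With same-numbered libraries paired, both retinal shares were lower in 5 of 5 pairs and the *Eno2* share was higher in 4 of 4 pairs of cells, where the smallest exact *p* possible was 0.062 and 0.12. The block changed no other call. Depth limits *Ldhb* in cells, where a few counts per library put it below the filter and leave its share and its difference from the retina with little precision.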
